A study of Rattus norvegicus with 12 samples.

Results

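The genes described are the chemokines and chemokine receptors of rat PAC1 cells, a smooth muscle line from pulmonary artery. They were taken as every row of the deposited count table whose gene symbol starts with Ccl, Cxcl, Ccr, Cxcr or Ackr and a digit, or with Cx3c, or is Xcl1. This rule matched 56 of 33294 gene symbols, of which 34 are ligands, 18 are receptors and 4 are atypical receptors. Of these 56 genes, 22 had enough reads to be tested, comprising 17 ligands, 3 receptors and 2 atypical receptors. The 4 groups of 3 libraries were PAC1 cells, which the study kept in its differentiated culture state. They were transfected with the control siRNA C2 or with an siRNA against RBPMS, RBFOX2 or QKI (gene symbol Qk). By the study's account, the cells of this experiment were less differentiated than those of its other RNA sequencing experiment. Per the labels, 90 pmol of siRNA were given by reverse transfection, the dose was repeated after 24 h and RNA followed 48 h after that, while the intervals in the study are longer. Every group, control included, therefore received lipid reagent and a double-stranded RNA, and each target was depleted with a single siRNA, so effects of losing the target and other effects of that siRNA cannot be told apart. The sense strands listed by the study are shown, 5′ to 3′, because the groups are set apart by them alone in the labels.

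Control siRNA C2: aagguccggcucccccaaaug
RBPMS siRNA: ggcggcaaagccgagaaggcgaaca
RBFOX2 siRNA: gcaaugguucagccuuuua
QKI siRNA: ggacuuacagcuaaacaac

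Chemokines are small secreted proteins, named CC, CXC, CX3C or XC by the spacing of their conserved cysteines, that attract cells carrying matching G protein coupled receptors. Atypical receptors bind chemokines without classical G protein signalling and mostly clear or position them. In the vessel wall, smooth muscle cells are a known source of chemokines such as Ccl2 and Cxcl12, which act on leukocytes and on progenitor cells.

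Library totals ranged from 111 to 152 M counts. Levels are given as CPM, the count scaled to the TMM-adjusted library total, and the SD is over 3 libraries. Changes are log2 fold changes from edgeR's quasi-likelihood test in a single fit of the 12 libraries, with p adjusted by the Benjamini-Hochberg method over the 18438 genes tested. A gene is said to rise or fall at an adjusted p under 0.05, and to be changed at least 2-fold where its absolute log2 fold change also exceeded 1. The siRNA targets checked the labels: Rbpms had a control level of 40.7 ± 2.60 CPM and a knockdown level of 7.21 ± 0.301 CPM, against 154 ± 4.37 CPM and 37.3 ± 0.943 CPM for Rbfox2 and 233 ± 7.04 CPM and 26.6 ± 0.649 CPM for Qk. The depletions were not separate, since all 3 targets fell with RBFOX2 depleted and with QKI depleted. Rbpms averaged 23.1 ± 1.90 CPM after the RBFOX2 siRNA and 29.0 ± 0.957 CPM after the QKI siRNA. Qk averaged 174 ± 1.32 CPM after the RBFOX2 siRNA, but rose to 265 ± 10.6 CPM after the RBPMS siRNA. All 6 smooth muscle markers were tested, and their summed level was 1693 to 1739 CPM in control, 831 to 928 in RBPMS knockdown, 554 to 644 in RBFOX2 knockdown and 1155 to 1243 in QKI knockdown, mostly from Acta2 and Tagln. Acta2, Cnn1 and Mylk fell in the 3 knockdowns. Tagln fell in RBPMS and RBFOX2 knockdown, but in QKI knockdown it averaged 704 CPM against 687 CPM in control and did not pass. With RBPMS, RBFOX2 or QKI depleted, Cnn1 averaged 2.59, 1.21 or 4.63 CPM, against a control mean of 6.43 CPM. Mylk averaged 2.02, 2.52 or 1.44 CPM in that order, against a control mean of 4.18 CPM. The remaining markers rose, namely Myh11 in the 3 knockdowns (0.34, 1.05 and 0.19 on the log2 scale) and Myocd in RBPMS and QKI knockdown (0.16 and 0.78). Of 9 leukocyte markers 4 were tested, and no library held over 4 counts of the pan-leukocyte gene Ptprc, over 4 of Adgre1 or over 1 of Ms4a1. The summed level of the leukocyte list was 38.4 to 40.0 CPM in control, 52.9 to 60.6 in RBPMS knockdown, 53.7 to 55.0 in RBFOX2 knockdown and 44.2 to 45.4 in QKI knockdown, most of it from Cd14, a receptor that some stromal cells also carry. Csf1r, of the same list, was at 0.405 ± 0.0469 CPM, 0.904 ± 0.102 CPM, 0.684 ± 0.222 CPM and 3.63 ± 0.337 CPM in these groups. Of 5 endothelial markers 4 were tested, with a summed level of 8.73 to 10.8, 8.84 to 9.12, 5.18 to 5.76 and 6.46 to 6.75 CPM, mostly from Cdh5, which fell in the 3 knockdowns (−0.28, −1.10 and −1.18). Pecam1 and Tek rose in RBPMS knockdown (1.70 and 0.59) and in QKI knockdown (1.27 and 0.66), and no library held over 6 counts of Kdr. The part of other cells in the levels of chemokine genes was not tested.

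Ligands were tested in 17 of 34 cases and receptors, atypical ones included, in 5 of 22. No library held over 19 counts of any of the 34 genes that were not tested. Of these, 4, namely Ackr1, Ccl1, Ccr8 and Cxcl14, had 0 counts in all 12 libraries, which allows up to 3 counts per library if counts are independent. A further 13 genes had at most 2 counts in any library. These included the ligands Ccl6, Ccl12, Ccl21, Ccl26 and Cxcl6 and the receptors Ccr1, Ccr1l1, Ccr2, Ccr3, Cxcr1, Cxcr2 and Cx3cr1. Among them are Ccr2, the receptor of Ccl2 and Ccl7, Cxcr2, the receptor of Cxcl1 and its relatives, and Cx3cr1, the receptor of Cx3cl1, whose ligands were all present. Cxcr4, the signalling receptor of Cxcl12, had between 0 and 4 counts per library. The remaining genes that were not tested were Ccl25, Ccr7, Ccr4 and Cxcr6 with at most 4 counts, Ackr2 and Ccl28 with at most 5, Cxcl9, Ccr6, Ccl24 and Ccl17 with at most 6, Ccr9, Ccl9 and Ccl22 with at most 8, Ccl19 with at most 11, Ccl11 with at most 16 and Ccl3 with at most 19. Differences between the groups were not tested for these genes.

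Of the 22 tested genes, 9 rose at least 2-fold in RBPMS knockdown and 1 fell, against 5.16% of all genes tested that rose and 4.5% that fell by this rule. In RBFOX2 knockdown 7 rose and 2 fell at least 2-fold, against 6.96% and 4.73% of all genes. In QKI knockdown 4 rose and 2 fell, against 8.28% and 9.24%, and without TMM scaling 5 changed there, of which 80.0% rose. At an adjusted p alone, 15, 16 and 13 of the 22 passed in RBPMS, RBFOX2 and QKI knockdown, against 59.4%, 60.3% and 66.9% of all genes. The median log2 fold change of the 22 was 0.70, 0.60 and 0.063, beside 0.0085, 0.015 and 0.0070 over all genes. These counts cover genes that passed a filter on low counts, which asked for the level of 10 counts in a library of median size in any 3 libraries. All 22 would pass it without any 1 of the groups, but Xcl1 and Cxcl11 reached that level in 0 control libraries and so passed through the knockdowns, where they were higher, and the counts are given as a description. Across the 3 knockdowns 14 of the 22 changed at least 2-fold in some comparison with control, against 26.7% of all genes, and Ccl5, Cxcl11 and Xcl1 rose at least 2-fold in all 3, a pattern held by 1.97% of all genes. The 3 comparisons share the same control libraries. Libraries of the groups did not overlap for 61.7%, 68.6% and 72.3% of all genes in RBPMS, RBFOX2 and QKI knockdown against control, so that non-overlap of a single gene is common here.

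**Figure D1:**
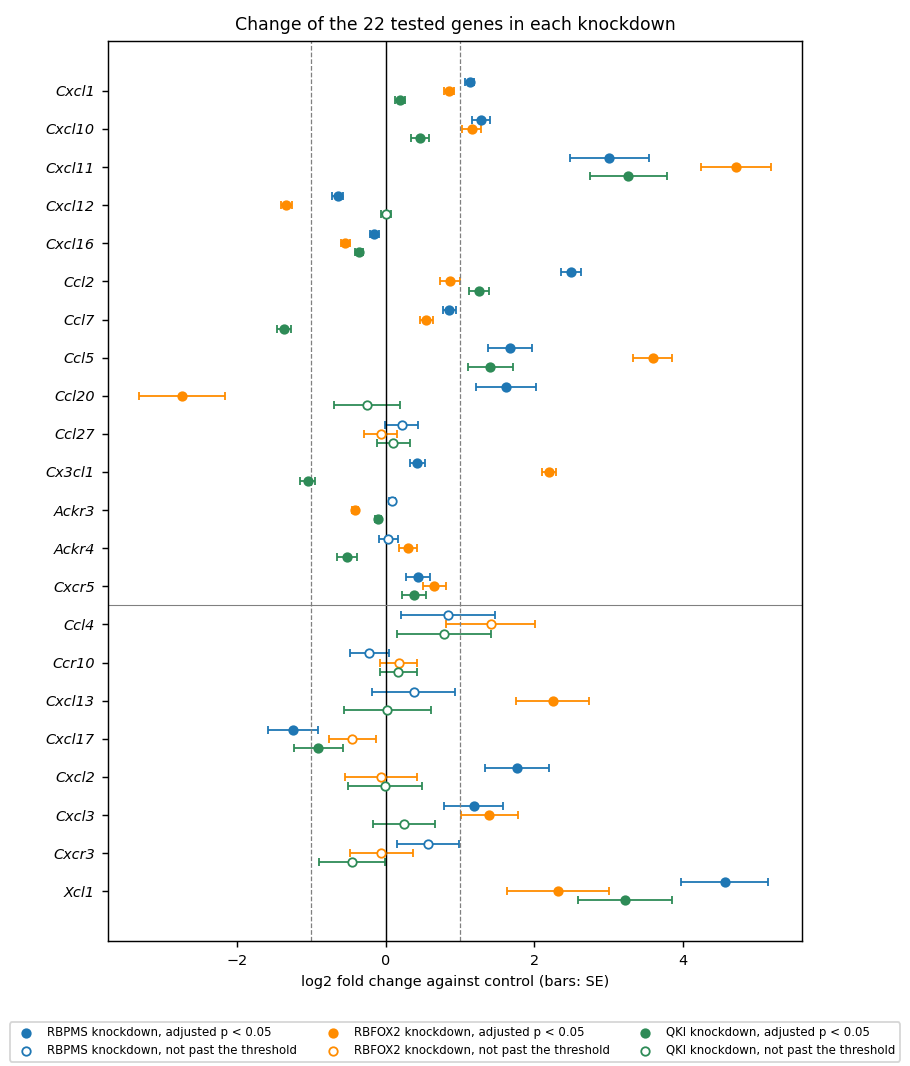
Log2 fold change against control (horizontal axis, bars show the SE) of the 22 tested genes in RBPMS, RBFOX2 and QKI knockdown, with filled points at an adjusted p under 0.05 and dashed lines at a 2-fold change. Genes under the grey line had fewer than 0.5 CPM in every group. Ccl5, Cxcl11 and Xcl1 lie to the right in all 3 knockdowns, whereas Cx3cl1, Ccl7 and Ccl20 lie on both sides of 0.

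The Cxcl12 axis was examined first, since Cxcl12 is the homeostatic chemokine that retains and recruits progenitor cells and Ackr3 is its atypical, scavenging receptor. Cxcl12 was at 700.1, 651 and 825 CPM in the control libraries, 501, 435 and 456 after RBPMS knockdown, 309, 283 and 268 after RBFOX2 knockdown and 733, 745 and 703 after QKI knockdown. The libraries of RBPMS and RBFOX2 knockdown all lay under the control libraries, and those of QKI knockdown lay within the control range. Cxcl12 fell in RBFOX2 knockdown, from 725 ± 89.3 CPM to 287 ± 20.6 CPM (−1.34 ± 0.073 SE on the log2 scale, with adjusted p 5.45e-11), and less in RBPMS knockdown, to 464 ± 33.7 CPM (−0.64 ± 0.072 SE, with adjusted p 5.90e-07). In QKI knockdown its mean was 727 ± 21.8 CPM, a log2 fold change of 0.0033 with a 95% interval of −0.14 to 0.14 (adjusted p 0.972). The authors' quantile-normalised table gave 0.18 there (limma adjusted p 0.0322). Compared directly, Cxcl12 was 1.62-fold lower in RBFOX2 than in RBPMS knockdown (adjusted p 3.37e-07) and 2.54-fold higher in QKI than in RBFOX2 knockdown (adjusted p 3.08e-11).

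Ackr3 was at 58.8, 60.5 and 62.9 CPM in the control libraries, 64.6, 65.8 and 62.9 after RBPMS knockdown, 46.5, 42.9 and 47.1 after RBFOX2 knockdown and 58.0, 54.9 and 56.9 after QKI knockdown. The RBFOX2 and QKI libraries lay below the control libraries and the RBPMS libraries overlapped with them. Ackr3 fell in RBFOX2 knockdown, at 45.5 ± 2.28 CPM against 60.8 ± 2.08 CPM in control (−0.42 ± 0.042 SE on the log2 scale, with adjusted p 1.54e-07). Its log2 fold change of 0.085 in RBPMS knockdown did not pass (adjusted p 0.0923). The small fall in QKI knockdown (−0.10, adjusted p 0.0398) missed the threshold once control 2, control 3, QKI-KD 2 or QKI-KD 3 was left out (−0.13 to −0.078 over 6 such fits) and with library totals only (−0.016). Cxcl12 and Ackr3 thus both fell in RBFOX2 knockdown, by 1.34 and 0.42 on the log2 scale.

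**Figure D2:**
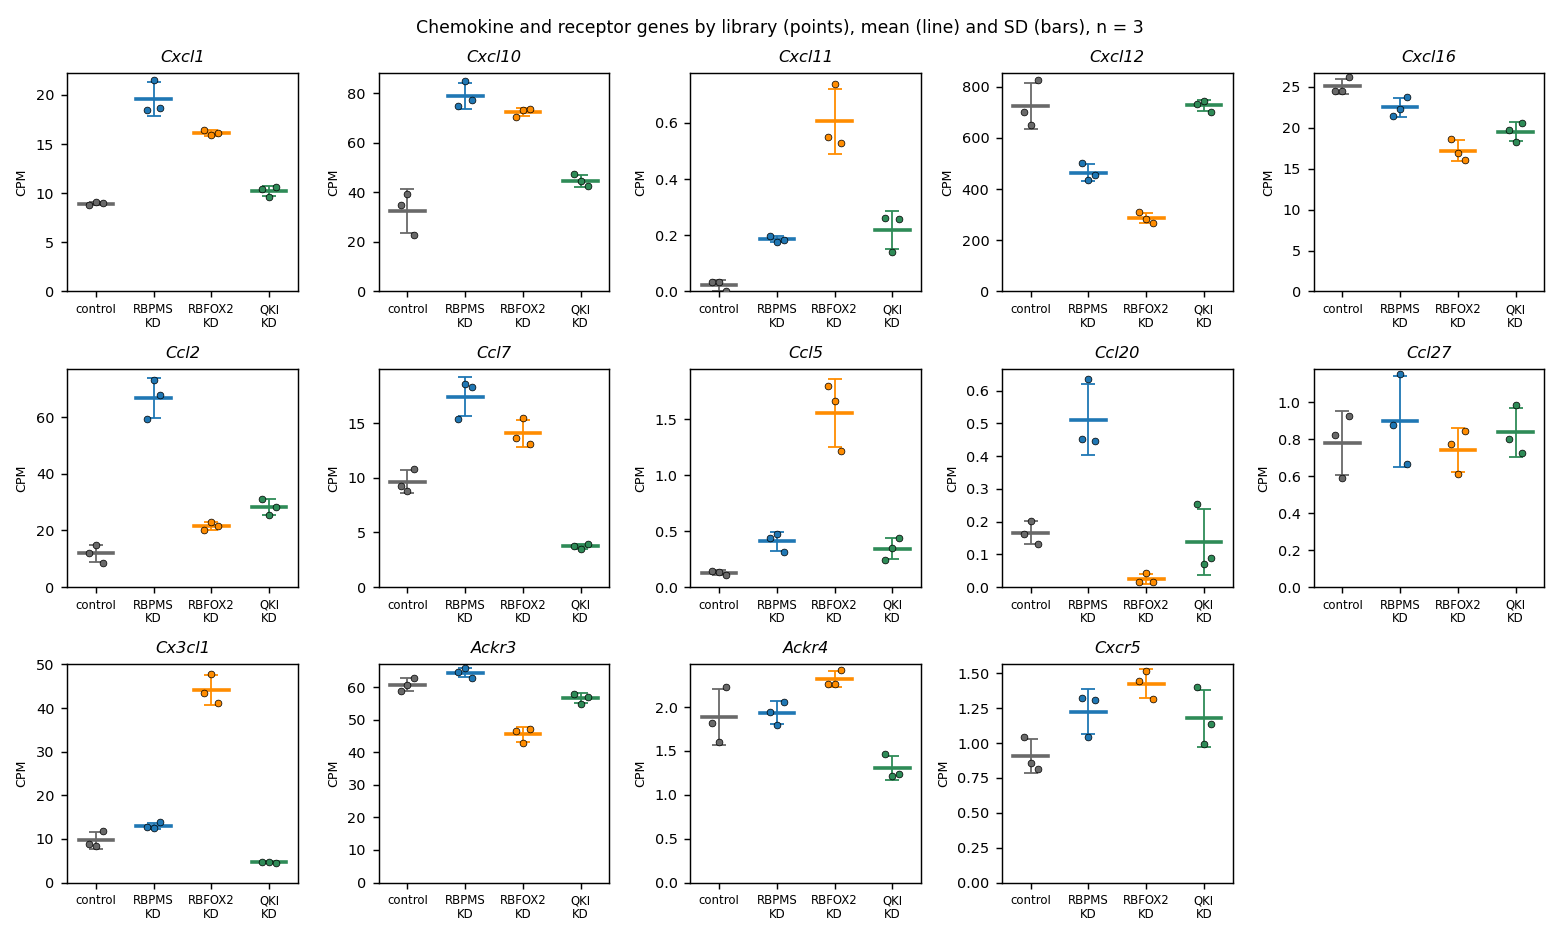
Level in CPM (vertical axes, each starting at 0) of the 14 genes with at least 0.5 CPM in some group, for the 3 libraries of each group (points) with the mean (line) and SD (bars). Cxcl12 is lowest in RBFOX2 knockdown at 287 CPM, Ccl2 highest in RBPMS knockdown at 66.8 CPM and Cx3cl1 highest in RBFOX2 knockdown at 44.2 CPM.

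Cx3cl1 encodes fractalkine, a membrane-anchored chemokine with a mucin stalk that can hold leukocytes in place or be shed. It was at 8.92, 8.28 and 11.8 CPM in the control libraries, 12.7, 12.4 and 13.8 after RBPMS knockdown, 43.5, 47.9 and 41.1 after RBFOX2 knockdown and 4.72, 4.73 and 4.52 after QKI knockdown. The 3 RBFOX2 libraries were all above every other library and the 3 QKI libraries below every other. In RBFOX2 knockdown Cx3cl1 rose 4.58-fold, from 9.66 ± 1.85 CPM to 44.2 ± 3.42 CPM (2.19 ± 0.095 SE on the log2 scale, with adjusted p 2.86e-12). In QKI knockdown it fell to 4.66 ± 0.121 CPM (−1.05 ± 0.10 SE, with adjusted p 9.68e-08), and without control 3, the control library with the highest level, the fall was 0.89 on the log2 scale, under 2-fold. In RBPMS knockdown it rose slightly, to 13.0 ± 0.738 CPM (0.43 ± 0.097 SE, with adjusted p 0.00103). The direct contrast of QKI with RBFOX2 knockdown was −3.25 (SE 0.10, adjusted p 2.44e-14). In RBFOX2 knockdown, therefore, the transcripts of Cx3cl1 and Cxcl12 moved in opposite directions.

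Ccl2 and Ccl7 are CC chemokines that attract monocytes through Ccr2, and in RefSeq (assembly GRCr8) their genes are neighbours that no other gene overlaps. Ccl2 was at 12.2, 14.8 and 8.59 CPM in the control libraries, 59.3, 73.2 and 67.9 after RBPMS knockdown, 20.0, 23.1 and 21.6 after RBFOX2 knockdown and 31.1, 25.6 and 28.1 after QKI knockdown. Every knockdown library lay above every control library. Ccl2 rose in RBPMS knockdown from 11.8 ± 3.11 CPM to 66.8 ± 7.01 CPM (2.49 ± 0.13 SE on the log2 scale, with adjusted p 6.80e-11), in QKI knockdown to 28.3 ± 2.76 CPM (1.25 ± 0.13 SE, with adjusted p 2.32e-07) and in RBFOX2 knockdown to 21.6 ± 1.57 CPM (0.86 ± 0.13 SE, with adjusted p 2.69e-05). The level in RBPMS knockdown exceeded that in RBFOX2 and QKI knockdown, by 3.10-fold and 2.36-fold (adjusted p 1.24e-08 and 1.88e-07). Control 3 had the lowest Ccl2 level of all libraries, and without it the log2 fold changes were 2.31, 0.67 and 1.06 in RBPMS, RBFOX2 and QKI knockdown.

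Ccl7 was at 9.29, 8.82 and 10.8 CPM in the control libraries, 15.4, 18.5 and 18.3 after RBPMS knockdown, 13.6, 15.4 and 13.1 after RBFOX2 knockdown and 3.76, 3.47 and 3.92 after QKI knockdown. The QKI libraries lay below control and those of the other knockdowns above it, with no overlap. Ccl7 rose in RBPMS knockdown to 17.4 ± 1.77 CPM from 9.64 ± 1.04 CPM (0.85 ± 0.087 SE on the log2 scale, with adjusted p 1.85e-07) and in RBFOX2 knockdown to 14.1 ± 1.23 CPM (0.55 ± 0.087 SE, with adjusted p 3.41e-05), and fell in QKI knockdown to 3.72 ± 0.228 CPM (−1.37 ± 0.096 SE, with adjusted p 8.58e-10). Ccl2 and Ccl7 thus rose together in RBPMS and RBFOX2 knockdown and moved apart in QKI knockdown, in which Ccl2 rose 2.38-fold and Ccl7 fell 2.59-fold. The other genes of this cluster, Ccl11, Ccl12 and Ccl1, were not tested. Ccl11 had 6, 10 and 16 counts in the control libraries, 6, 0 and 2 after RBPMS knockdown, 2, 2 and 2 after RBFOX2 knockdown and 2, 0 and 6 after QKI knockdown.

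**Figure D3:**
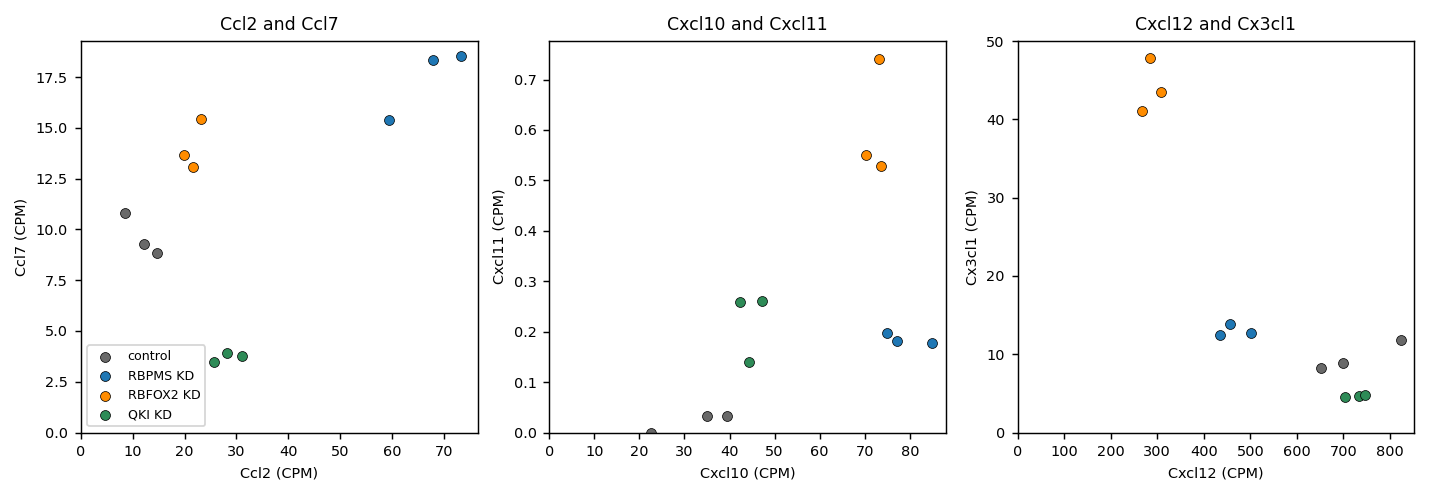
Level of Ccl7 against Ccl2, Cxcl11 against Cxcl10 and Cx3cl1 against Cxcl12 in each of the 12 libraries (points, coloured by group), with both axes in CPM and starting at 0. QKI knockdown has Ccl2 above and Ccl7 below the control libraries, while RBFOX2 knockdown has the highest Cxcl11 and Cx3cl1 and the lowest Cxcl12 levels.

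Cxcl1, Cxcl2 and Cxcl3 encode CXC chemokines with an ELR motif, which attract neutrophils through Cxcr2, and their genes lie in a common cluster in GRCr8. How reads shared by these close paralogues were counted is not stated, so a part of the counts of Cxcl2 and Cxcl3 may belong to Cxcl1 or the reverse. Cxcl1 was at 8.75, 9.06 and 8.99 CPM in the control libraries, 18.5, 21.6 and 18.7 after RBPMS knockdown, 16.5, 15.9 and 16.1 after RBFOX2 knockdown and 10.4, 9.61 and 10.6 after QKI knockdown. The control libraries were closely spaced and every knockdown library lay above them. Cxcl1 rose 2.19-fold in RBPMS knockdown, from 8.93 ± 0.159 CPM to 19.6 ± 1.72 CPM (1.13 ± 0.061 SE on the log2 scale, with adjusted p 6.82e-11), and 1.81-fold in RBFOX2 knockdown, to 16.1 ± 0.302 CPM (0.85 ± 0.061 SE, with adjusted p 2.03e-09). Its rise in QKI knockdown was smaller (0.19 ± 0.063 SE, with adjusted p 0.0115) and missed the threshold without QKI-KD 3 (0.16, adjusted p 0.0526). Cxcl1 was lower in QKI than in RBPMS knockdown by 0.94 on the log2 scale (adjusted p 5.22e-10).

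Cxcl2 and Cxcl3 had few reads. Cxcl2 had 22, 22 and 8 counts in the control libraries, 52, 58 and 44 after RBPMS knockdown, 12, 18 and 21 after RBFOX2 knockdown and 32, 9 and 8 after QKI knockdown, with the RBPMS libraries above all others. It rose in RBPMS knockdown (1.77 ± 0.44 SE on the log2 scale, with adjusted p 0.00209), while its log2 fold changes of −0.058 and −0.0087 in RBFOX2 and QKI knockdown did not pass (adjusted p 0.926 and 0.988). Cxcl3 had 20, 12 and 18 counts in the control libraries, 22, 33 and 44 after RBPMS knockdown, 43, 54 and 39 after RBFOX2 knockdown and 26, 8 and 22 after QKI knockdown. It rose in RBFOX2 knockdown (1.39 ± 0.38 SE on the log2 scale, with adjusted p 0.00463) and in RBPMS knockdown (1.19 ± 0.39 SE, with adjusted p 0.0156), the latter a call lost without control 2 (0.94) or without RBPMS-KD 3 (0.86).

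The promoters of these genes were read from RefSeq (GRCr8), which differs from the authors' build, to show what precedes genes that NF-kB and interferon factors are known to control elsewhere. The table held promoters of 42 of the 56 genes and of 16 of the 22 tested genes, each from 250 bases before the start of transcription to 50 after it. None was held for the tested genes Ccl2, Ccl4, Ccl5, Cxcl3, Ccr10 and Cxcr5, which were therefore not searched. An NF-kB type motif, GGG, any 2 bases and TTTCC on either strand, was found in 6 of the 42, against 1.53% of all 33469 promoters. The 3 tested genes with it were Cxcl1, Cxcl2 and Ccl20. An interferon response type motif, GAAA, any 2 bases and GAAA on either strand, was found in 2 of the 42, against 3.92% of all promoters, and the tested gene with it was Cxcl10. A match describes the sequence only, and other forms of these motifs were not searched, so a promoter without a match may hold one. The stretches end at the base before the start of transcription, and capitals mark matches to either motif. That of Ccl7, which holds neither motif as searched, is also shown, but without a Ccl2 promoter it cannot be set against that of its neighbour. Those of Cxcl1, Cxcl2 and Ccl7 lie at chr14:17479322-17479451, minus strand, at chr14:17467256-17467385, minus strand, and at chr10:67513965-67514094, plus strand. Those of Ccl20 and Cxcl10 lie at chr9:91837029-91837158, plus strand, and at chr14:15988816-15989065, plus strand.

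Cxcl1 promoter: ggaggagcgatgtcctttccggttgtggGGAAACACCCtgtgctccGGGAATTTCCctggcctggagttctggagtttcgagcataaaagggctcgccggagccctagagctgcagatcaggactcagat
Cxcl2 promoter: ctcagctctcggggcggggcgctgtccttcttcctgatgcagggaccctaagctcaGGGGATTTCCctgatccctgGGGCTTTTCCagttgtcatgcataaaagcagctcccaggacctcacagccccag
Ccl20 promoter: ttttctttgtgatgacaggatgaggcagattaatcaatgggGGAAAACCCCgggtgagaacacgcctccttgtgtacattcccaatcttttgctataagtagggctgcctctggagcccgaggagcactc
Cxcl10 promoter: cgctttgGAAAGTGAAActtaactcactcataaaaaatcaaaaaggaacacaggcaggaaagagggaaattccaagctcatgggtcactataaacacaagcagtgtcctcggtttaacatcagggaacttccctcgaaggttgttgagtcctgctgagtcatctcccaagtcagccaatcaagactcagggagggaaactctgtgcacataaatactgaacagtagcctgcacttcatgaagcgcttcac
Ccl7 promoter: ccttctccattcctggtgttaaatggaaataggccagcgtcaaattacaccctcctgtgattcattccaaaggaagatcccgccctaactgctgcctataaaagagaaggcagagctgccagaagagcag

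The 2 matches of Cxcl1 begin 102 and 84 bases before the start, those of Cxcl2 begin 74 and 54 bases before it, that of Ccl20 begins 89 bases before it and that of Cxcl10 begins 243 bases before it. Cxcl1 and Cxcl2 both rose most in RBPMS knockdown. Ccl20, with the same motif, rose in RBPMS knockdown and fell in RBFOX2 knockdown.

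Cxcl10 and Cxcl11, neighbours in GRCr8, encode interferon-inducible CXC chemokines that attract activated T cells through Cxcr3. Cxcl10 was at 35.1, 39.5 and 22.6 CPM in the control libraries, 74.9, 84.9 and 77.1 after RBPMS knockdown, 70.3, 73.2 and 73.6 after RBFOX2 knockdown and 47.2, 44.4 and 42.4 after QKI knockdown. All knockdown libraries lay above the control libraries, which were themselves spread, with control 3 lowest. Cxcl10 rose from 32.4 ± 8.75 CPM to 79.0 ± 5.25 CPM in RBPMS knockdown (1.29 ± 0.13 SE on the log2 scale, with adjusted p 1.24e-07) and to 72.4 ± 1.79 CPM in RBFOX2 knockdown (1.16 ± 0.13 SE, with adjusted p 4.10e-07), and by less in QKI knockdown, to 44.7 ± 2.41 CPM (0.46 ± 0.13 SE, with adjusted p 0.00372). Without control 3 these values were 1.08, 0.95 and 0.26. The level in QKI knockdown was under that in RBPMS and RBFOX2 knockdown, by 0.82 and 0.70 on the log2 scale (adjusted p 1.95e-05 and 8.91e-05). RBPMS and RBFOX2 knockdown differed by −0.13 with a 95% interval of −0.37 to 0.11 (adjusted p 0.399), which passed only in a fit of the 6 libraries alone (adjusted p 0.0452).

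Cxcl11 was nearly absent from control. It had 4, 5 and 0 counts in the control libraries, 21, 24 and 20 after RBPMS knockdown, 76, 104 and 72 after RBFOX2 knockdown and 36, 16 and 32 after QKI knockdown, or 0.549, 0.740 and 0.529 CPM in the RBFOX2 libraries, which were above all others. The log2 fold changes were 4.72 in RBFOX2 knockdown (SE 0.47, adjusted p 1.26e-07), 3.01 in RBPMS knockdown (SE 0.53, adjusted p 1.07e-04) and 3.27 in QKI knockdown (SE 0.52, adjusted p 2.59e-05). With so few control counts their size is imprecise, and in RBFOX2 knockdown it ran from 4.15 to 5.20 when 1 library was left out. The direct contrast of RBFOX2 with RBPMS knockdown was 1.71 (adjusted p 4.15e-04), beside −0.13 for Cxcl10. The third gene of the cluster, Cxcl9, had 0 counts in the 3 control libraries and 2, 6 and 4 counts in RBFOX2 knockdown, and was not tested. Their receptor Cxcr3 had 8 to 30 counts per library and did not pass in any knockdown (adjusted p 0.259, 0.917 and 0.388).

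Ccl5, a T cell and monocyte attractant that viral and interferon responses are known to raise, was at 0.147, 0.134 and 0.103 CPM in the control libraries, 0.442, 0.473 and 0.309 after RBPMS knockdown, 1.79, 1.66 and 1.21 after RBFOX2 knockdown and 0.245, 0.348 and 0.436 after QKI knockdown. The RBFOX2 libraries were above all others and the control libraries below all others. Ccl5 rose 12.1-fold in RBFOX2 knockdown, from 0.128 ± 0.0227 CPM to 1.56 ± 0.305 CPM (3.60 ± 0.26 SE on the log2 scale, with adjusted p 2.59e-09), and also in RBPMS knockdown (1.68 ± 0.29 SE, with adjusted p 9.97e-05) and QKI knockdown (1.41 ± 0.30 SE, with adjusted p 4.93e-04). The control level rests on 14 to 20 counts per library. RBFOX2 knockdown exceeded RBPMS knockdown by 1.92 (adjusted p 1.56e-06) and QKI knockdown by 2.19 (adjusted p 2.00e-07) on the log2 scale. Cxcl11 and Ccl5 therefore shared an order in which RBFOX2 knockdown was highest and control lowest, while RBPMS and QKI knockdown did not pass as different from each other (Cxcl11 0.25, 95% interval −0.48 to 0.98, and Ccl5 −0.27, −0.77 to 0.24).

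Ccl20 attracts cells that carry Ccr6, such as some lymphocytes and dendritic cells. It had 20, 30 and 18 counts in the control libraries, 48, 86 and 49 after RBPMS knockdown, 2, 6 and 2 after RBFOX2 knockdown and 35, 8 and 11 after QKI knockdown, or at most 0.636 CPM. The RBPMS libraries were all above and the RBFOX2 libraries all below the control libraries. It rose in RBPMS knockdown (1.62 ± 0.40 SE on the log2 scale, with adjusted p 0.00208) and fell in RBFOX2 knockdown (−2.74 ± 0.58 SE, with adjusted p 5.70e-04), the only ligand with changes of at least 2-fold in opposite directions besides Cx3cl1. The direct contrast of RBFOX2 with RBPMS knockdown was −4.36 (SE 0.53, adjusted p 2.01e-06). In QKI knockdown the libraries were spread, and the log2 fold change of −0.25 (adjusted p 0.646) ran from −1.06 without QKI-KD 1 to 0.057 without QKI-KD 2.

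Of the ligands with few reads, Xcl1, a chemokine usually made by activated T and NK cells, had 0, 4 and 4 counts in the control libraries, 76, 63 and 30 after RBPMS knockdown, 14, 11 and 17 after RBFOX2 knockdown and 25, 13 and 34 after QKI knockdown. Every knockdown library was above every control library. Its log2 fold changes were 4.56, 2.32 and 3.22 in RBPMS, RBFOX2 and QKI knockdown (SE 0.59, 0.68 and 0.64, adjusted p 3.28e-06, 0.00735 and 2.45e-04), and the T cell marker Cd3e was at 0.428 ± 0.0777 CPM, 0.527 ± 0.144 CPM, 0.583 ± 0.105 CPM and 0.571 ± 0.150 CPM in control and the same knockdowns. Cxcl13, which attracts B cells through Cxcr5, had 8, 6 and 14 counts in the control libraries, 8, 16 and 8 after RBPMS knockdown, 42, 58 and 38 after RBFOX2 knockdown and 2, 14 and 10 after QKI knockdown. It rose in RBFOX2 knockdown (2.25 ± 0.49 SE on the log2 scale, with adjusted p 7.04e-04) and was higher there than in RBPMS knockdown (1.87, adjusted p 0.00304) and QKI knockdown, by 2.23 (adjusted p 6.94e-04). Cxcl17, a mucosal chemokine whose gene overlaps a long non-coding RNA gene in GRCr8, had 58, 52 and 52 counts in the control libraries, 18, 23 and 18 after RBPMS knockdown, 50, 48 and 24 after RBFOX2 knockdown and 31, 14 and 36 after QKI knockdown. The overlapping gene, LOC120096895, fell as well in RBPMS knockdown (−0.69, adjusted p 0.00788) and differed by −0.46 and −0.23 in RBFOX2 and QKI knockdown (adjusted p 0.0524 and 0.306). Cxcl17 fell in RBPMS knockdown (−1.25 ± 0.34 SE on the log2 scale, with adjusted p 0.00425) and in QKI knockdown (−0.91 ± 0.33 SE, with adjusted p 0.0212), the second a call lost without control 1 or without QKI-KD 2 (−0.78 and −0.64). Ccl4, a CC chemokine that attracts monocytes and T cells, had 1, 17 and 14 counts in the control libraries, 6, 28 and 16 after RBPMS knockdown, 28, 27 and 31 after RBFOX2 knockdown and 20, 5 and 26 after QKI knockdown. In RBFOX2 knockdown its difference of 1.42 on the log2 scale did not pass (adjusted p 0.0513), although it did in 7 alternatives, among them DESeq2 (adjusted p 0.0398) and leaving out control 2 (adjusted p 0.0442).

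**Figure D4:**
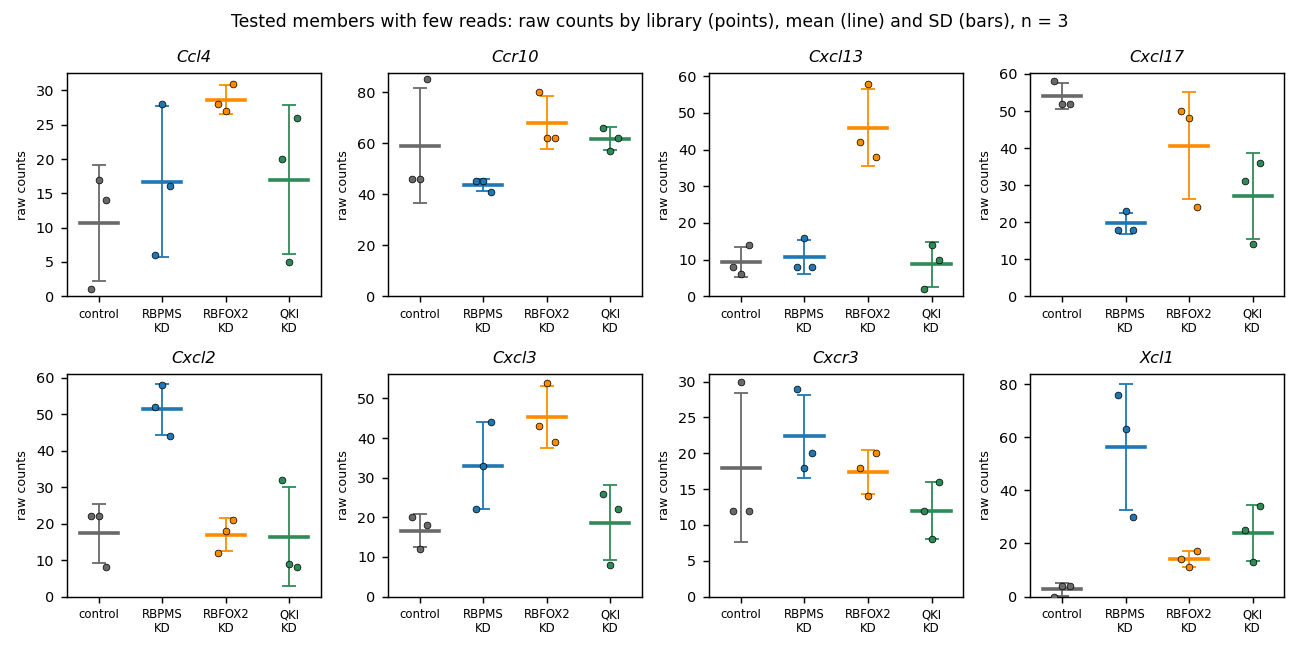
Raw counts (vertical axes, each starting at 0) of the 8 tested genes with fewer than 0.5 CPM in every group, for the 3 libraries of each group (points) with the mean (line) and SD (bars). Xcl1 reaches 76 counts in RBPMS knockdown against at most 4 in control, and Cxcl13 lies between 38 and 58 counts in RBFOX2 knockdown against at most 16 elsewhere.

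Cxcl16 encodes a membrane-anchored CXC chemokine that also binds oxidised lipoproteins. It was at 24.5, 24.4 and 26.1 CPM in the control libraries, 21.4, 22.3 and 23.7 after RBPMS knockdown, 18.6, 16.9 and 16.1 after RBFOX2 knockdown and 19.8, 18.3 and 20.5 after QKI knockdown, so that every knockdown library lay below the control libraries. It fell most in RBFOX2 knockdown, from 25.0 ± 0.957 CPM to 17.2 ± 1.27 CPM (−0.54 ± 0.059 SE on the log2 scale, with adjusted p 4.49e-07), and by less in QKI knockdown (−0.36 ± 0.059 SE, with adjusted p 4.15e-05). The small fall in RBPMS knockdown (−0.15 ± 0.059 SE, with adjusted p 0.0330) was lost without control 3 or without RBPMS-KD 1 (−0.12 and −0.12). Its annotated overlap partner Zmynd15 changed by −0.30 in RBFOX2 knockdown (adjusted p 0.158) and rose by 0.51 in QKI knockdown (adjusted p 0.0148).

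Several receptor genes lie within or across another gene in GRCr8, and the strand setting of the counting is not given in the sources used here, so their reads and those of the partner cannot be told apart. Ackr4, the scavenger of Ccl19, Ccl21 and Ccl25, overlaps Acad11 and was at 1.81, 1.60 and 2.23 CPM in the control libraries, 1.95, 1.80 and 2.06 after RBPMS knockdown, 2.26, 2.26 and 2.42 after RBFOX2 knockdown and 1.47, 1.22 and 1.23 after QKI knockdown. It fell in QKI knockdown (−0.52 ± 0.13 SE on the log2 scale, with adjusted p 0.00204), and its rise in RBFOX2 knockdown (0.30 ± 0.13 SE, with adjusted p 0.0479) was lost without any 1 of the 6 libraries other than control 3 (down to 0.19), while Acad11 rose by 1.07 there and changed by −0.16 in QKI knockdown. Cxcr5, the receptor of Cxcl13, overlaps Bcl9l and was at 1.05, 0.859 and 0.815 CPM in the control libraries, 1.33, 1.04 and 1.31 after RBPMS knockdown, 1.45, 1.52 and 1.31 after RBFOX2 knockdown and 1.40, 0.992 and 1.14 after QKI knockdown. Cxcr5 rose in RBFOX2 knockdown (0.66 ± 0.16 SE on the log2 scale, with adjusted p 0.00169), where Bcl9l rose by 0.52 (adjusted p 4.34e-06). Its rises in RBPMS and QKI knockdown (0.43 and 0.38, adjusted p 0.0291 and 0.0442) were each lost without control 2 or 3 and without replicate 1 or 3 of the knockdown, being 0.36 to 0.54 and 0.24 to 0.49 with 1 library left out. Ccr10, the receptor of Ccl27 and Ccl28, overlaps Cntnap1 and had 41 to 85 counts per library, with log2 fold changes of −0.22, 0.17 and 0.17 that did not pass (adjusted p 0.492, 0.567 and 0.564). Ccl27, a skin chemokine that overlaps Il11ra1, was at 0.825, 0.591 and 0.925 CPM in the control libraries, 0.874, 1.15 and 0.664 after RBPMS knockdown, 0.774, 0.612 and 0.845 after RBFOX2 knockdown and 0.801, 0.983 and 0.726 after QKI knockdown. Its groups overlapped, and its log2 fold changes had 95% intervals of −0.22 to 0.65, −0.50 to 0.37 and −0.33 to 0.54 in RBPMS, RBFOX2 and QKI knockdown. Cxcl10 and Cxcl11 both overlap Art3, whose mean was at most 0.0405 CPM in any group.

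The knockdowns were then compared with each other. Of the 22 tested genes, 8 differed at least 2-fold between RBFOX2 and RBPMS knockdown, against 7.52% of all genes (4.41% higher and 3.1% lower). Cxcl11, Ccl5, Cx3cl1 and Cxcl13 were higher in RBFOX2 knockdown, and Ccl2, Ccl20, Cxcl2 and Xcl1 were higher in RBPMS knockdown. Between QKI and RBPMS knockdown 6 differed, against 12.2% of all genes (5.66% higher and 6.53% lower), and all 6, Ccl2, Ccl7, Ccl20, Cx3cl1, Cxcl2 and Xcl1, were lower in QKI knockdown, although the call of Xcl1 was lost without RBPMS-KD 1 or without QKI-KD 2 (−0.97 and −1.09). Between QKI and RBFOX2 knockdown 8 differed, against 18.4% of all genes (7.74% higher and 10.6% lower), with Cxcl12 and Ccl20 higher and Ccl5, Ccl7, Cx3cl1, Cxcl3, Cxcl11 and Cxcl13 lower in QKI knockdown. The call of Cxcl3 in this last comparison was lost without RBFOX2-KD 2 or without QKI-KD 2 (−1.01 and −0.83). The groups did not overlap in 61.5%, 63.8% and 75.2% of all genes in these 3 comparisons.

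Genes of the pathways around the chemokines were taken from lists written for their roles. Of 24 genes of the NF-kB pathway and its classical targets 21 were tested, and the inducing cytokines Il1a, Il1b and Tnf were not, with at most 5, 5 and 8 counts in any library. In RBPMS knockdown 10 of the 21 rose and 6 fell, in RBFOX2 knockdown 10 rose and 8 fell, and in QKI knockdown 7 rose and 11 fell, where 59.4%, 60.3% and 66.9% of all genes passed in either direction, with median log2 fold changes of 0.20, 0.11 and −0.14. Tnfaip3, an NF-kB target that dampens the pathway, rose in RBPMS knockdown from 11.5 ± 1.49 CPM to 27.8 ± 1.53 CPM (1.26 ± 0.070 SE on the log2 scale, with adjusted p 8.97e-11), beside 0.41 and 0.68 in RBFOX2 and QKI knockdown. Il1r1, the receptor of interleukin 1, rose in RBPMS and QKI knockdown (1.20 and 1.57) and fell in RBFOX2 knockdown (−0.33). Irak1, a kinase below that receptor, rose in the 3 knockdowns (0.76, 1.14 and 0.80), Traf6 fell at least 2-fold in QKI knockdown (−1.05) and Tnfrsf1a in RBFOX2 knockdown (−1.05). Vcam1, the adhesion molecule that holds monocytes, fell in QKI knockdown from 31.1 ± 2.84 CPM to 9.01 ± 1.07 CPM (−1.78 ± 0.074 SE, with adjusted p 7.51e-13) and rose in RBPMS and RBFOX2 knockdown (0.46 and 0.23), the directions that Ccl7 took.

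All 6 interferon transcription factors were tested. Irf7 rose in RBFOX2 knockdown from 19.9 ± 0.928 CPM to 65.6 ± 13.8 CPM (1.72 ± 0.12 SE on the log2 scale, with adjusted p 8.63e-10), as did Stat2 (1.05 ± 0.047 SE, with adjusted p 3.76e-12), and Irf7 was higher there than in RBPMS knockdown by 1.25 (adjusted p 6.86e-08). In QKI knockdown Irf1 fell by 0.97, just under 2-fold. In RBPMS knockdown 2 of the 6 rose and 3 fell, in RBFOX2 knockdown 4 rose and 1 fell, and in QKI knockdown 1 rose and 3 fell, against the same 59.4%, 60.3% and 66.9% of all genes, with medians of −0.041, 0.40 and −0.16. Of 19 genes that signal below chemokine receptors 15 were tested, of which 2 rose and 9 fell in RBPMS knockdown, 3 rose and 8 fell in RBFOX2 knockdown, and 4 rose and 10 fell in QKI knockdown (59.4%, 60.3% and 66.9% of all genes passed, medians −0.14, −0.11 and −0.38). Gnai3, an inhibitory G protein subunit, rose at least 2-fold in RBPMS and QKI knockdown (1.07 and 1.01), and Grk2, a kinase that desensitises these receptors, fell in RBFOX2 knockdown (−1.27).

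Of 8 genes of the chemokine system that carry other symbols 5 were tested, of which 3, 4 and 4 passed in RBPMS, RBFOX2 and QKI knockdown (59.4%, 60.3% and 66.9% of all genes), with medians of −0.12, −0.41 and −0.55. Dpp4, the protease that trims and inactivates Cxcl12 among other chemokines, was low but rose in the 3 knockdowns, from 0.0986 ± 0.0317 CPM to 0.318 ± 0.0884 CPM with RBPMS, 0.472 ± 0.0163 CPM with RBFOX2 and 0.290 ± 0.0132 CPM with QKI depleted (log2 fold changes 1.66, 2.23 and 1.52, adjusted p 1.54e-04, 3.70e-06 and 2.81e-04). Gpr182, another atypical chemokine receptor, fell in the 3 knockdowns (−1.03, −0.41 and −1.88). Cklf fell in the 3 as well (−0.41, −0.60 and −1.71). Ccrl2, which binds chemerin, fell in QKI knockdown (−0.55), and Mif, a cytokine that binds chemokine receptors, fell in RBFOX2 knockdown (−0.53, adjusted p 4.06e-07). Pf4 had 0 counts in every library, and no library held over 4 counts of Ppbp or over 8 of Xcr1. Dpp4, Gpr182, Cklf and Ccrl2 had under 5 CPM in every group and are named although the rule for such genes asked for 5 CPM.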

How the data were processed

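Poly(A)-selected RNA of PAC1 cells was sequenced in 12 libraries of 4 groups, assigned from the sample titles. The authors deposited raw counts per gene, made with STAR on mRatBN7.2 and featureCounts per the study's methods, and a quantile-normalised signal deposited by the authors after a noise filter with noisyR. The methods give equal subsampling before alignment, which the totals of 111 to 152 M do not show, and a later STAR than the version 2.5.2a of the submitters' processing notes. Strand use and handling of shared reads are not stated. Of the 191 values from 1 to 19 among the chemokine genes, 83.8% were even, so small counts may not be independent of each other. Separate cultures are not stated in the labels, so p-values measure the spread between these samples. Replicate pairs differed by a chi-square per degree of freedom of 4.64 or more, so none was a duplicate. The largest values, 57.8 and 45.6, were those of RBPMS-KD 2 with RBPMS-KD 1 and RBPMS-KD 3, beside 9.27 for RBPMS-KD 1 with RBPMS-KD 3.

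Counts were tested with edgeR 4.0.16 (R 4.3.3): filterByExpr by group left 18438 genes, scaling was TMM, and all groups entered 1 fit with 1 coefficient each. The SE is the absolute log2 fold change over the square root of F, and intervals are 1.96 SE. The thresholds are the study's. The script was tested on simulated data. DESeq2 1.42.0, limma 3.58.1 on log2(signal + 1) and the other alternatives are given at the end. With 3 libraries against 3, an exact permutation test cannot give a p below 0.1. Values in every library are given for genes with at least 0.5 CPM in some group, other tested genes are named where they changed and some others were named after their values were seen, and pathway genes are named where changed at 5 CPM or more. The members and lists were chosen with earlier results of these data known. All 56 symbols matched the RefSeq table of GRCr8, used only for neighbours, overlaps and promoters. The lists of markers and pathways are those named in the text, and Cxcl5 is not a row of the table. Splicing was not analysed here. Some genes of the lists are not reported here by name.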

Additional observations from a re-analysis of the deposited data

Results flagged for a closer look

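For 3 ligands, effects in opposite directions against control also differed at least 2-fold in the direct comparison of the knockdowns, by edgeR's quasi-likelihood test. Ccl7 was lower in QKI than in RBPMS knockdown, by a difference of −2.23 on the log2 scale (SE 0.095, adjusted p 1.95e-12), and lower than in RBFOX2 knockdown, by a difference of −1.92 (SE 0.095, adjusted p 8.57e-12). Cx3cl1 was lower in QKI than in RBPMS knockdown, by a difference of −1.48 (SE 0.10, adjusted p 1.50e-09), and the contrast of QKI with RBFOX2 knockdown was −3.25 (adjusted p 2.44e-14). Ccl20 differed between RBFOX2 and RBPMS knockdown by −4.36 (SE 0.53, adjusted p 2.01e-06), on 2 to 6 counts per library in RBFOX2 knockdown and 48 to 86 in RBPMS knockdown. In each of these 5 comparisons the 3 libraries of 1 knockdown did not overlap with those of the other, as for 61.5%, 63.8% and 75.2% of all genes in the comparisons of RBFOX2 with RBPMS, QKI with RBPMS and QKI with RBFOX2 knockdown. Groups of 3 libraries were too small to test single libraries as outliers.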

How the results depend on the processing

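Counts are given in the order RBPMS, RBFOX2 and QKI knockdown against control, then RBFOX2 against RBPMS, QKI against RBPMS and QKI against RBFOX2 knockdown. Genes changed at least 2-fold numbered 1781, 2156, 3231, 1386, 2248 and 3389 of all genes and 10, 9, 6, 8, 6 and 8 of the chemokine genes. At an adjusted p alone these became 10946, 11113, 12336, 10455, 11249 and 12636 and 15, 16, 13, 13, 13 and 14. With only genes of a mean of at least 200 counts they were 692, 840, 1484, 435, 929 and 1515 and 3, 3, 3, 2, 3 and 3, since fewer genes were tested, and with a test against a 2-fold change (glmTreat) 603, 819, 1704, 313, 933 and 1791 and 3, 5, 3, 4, 2 and 6. RLE size factors, library totals, DESeq2, no filter, the authors' normalised table, halved counts, the 6 libraries alone and fits without 1 library kept every count within 1.5 times. Library totals only moved the median of all genes from 0.0096 to 0.11 between RBFOX2 and RBPMS knockdown and from −0.010 to 0.12 between QKI and RBPMS knockdown, and the share of changed genes that were higher from 58.7% to 69.0% and from 46.4% to 58.6%. The authors' normalised table gave 46.7% in the first, and for the chemokine genes 66.7% in RBFOX2 knockdown against 77.8%. Of 2529 refits of single genes, 2455 left the call as it was, 57 lost it, 17 gained it and 0 reversed a called direction. The 2455 include genes that passed in neither fit, whose sign could differ, as for Ccl20 in QKI knockdown. The replicate numbers did not pair the libraries: deviations of same-numbered libraries correlated between −0.055 and 0.039 in 18 pairs, none of the 12 libraries correlated best with its own number in every group, and the replicate block gave 1752, 2110, 3203, 1361, 2209 and 3360 genes and 10, 10, 6, 8, 6 and 8 chemokine genes. Depth limits Ccl4, Ccl20, Cxcl2, Cxcl3, Cxcl11, Cxcl13, Cxcr3 and Xcl1, each with 8 or fewer counts in some library.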
